A study of Mus musculus with 12 samples.

Results

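The mitochondrial genome of the mouse holds 37 genes, all of which are present in the count table of 55536 genes. They were taken as every gene that GENCODE release M21 places on the mitochondrial chromosome (symbols starting with mt-), and comprise 13 mRNA genes, 2 rRNA genes and 22 tRNA genes. RNA was sequenced from megakaryocytes (MKs), the cells that release platelets, of Pf4-TdTomato mice labelled C57BL/6, in which Cre under the promoter of the MK gene Pf4 turns on TdTomato in the cells that expressed it and in their descendants. Young adult animals of both sexes received saline or cecal slurry, an injection of gut content that causes sepsis, and on day 5 pools of 300 cells positive for CD45, TdTomato, CD41 and CD42b and negative for lineage markers were sorted from bone marrow (BM) and spleen. According to the methods of the study, cells carrying CD138 were also left out. The 4 groups, named by tissue and treatment, were BM saline and BM sepsis, and spleen saline and spleen sepsis, each with 3 libraries described as independent replicates, so that p values measure the spread between such libraries.

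Mitochondria keep a small circular genome that is transcribed from both strands into long precursor RNAs. These are cut, mostly at the tRNAs that lie between the other genes, into the mRNAs of core subunits of the respiratory chain and of ATP synthase, the 2 rRNAs of the mitochondrial ribosome, and the tRNAs that this ribosome uses. All other mitochondrial proteins, including most subunits of the same complexes, come from nuclear genes. MKs pass mitochondria on to the platelets they release. Of the 37 genes, 28 lie on the plus strand of the annotation, and 9 lie on the minus strand, namely mt-Nd6 and 8 tRNA genes. The library kits used do not mark strand, so reads of a minus-strand gene cannot be told from reads of the opposite strand at the same place.

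Parts of the mitochondrial genome also exist as copies in the nuclear genome, and 11 nuclear gene models aligned to a mitochondrial gene over at least 100 bases with at least 95% identity. Of these, 7 lie beside each other on chr1:24611535-24616188 (GRCm38, minus strand), a stretch of 4654 bases that corresponds to positions 6390 to 11042 of the mitochondrial chromosome. Their positions ran in parallel with the mitochondrial ones at 1 constant offset for 5 models and at an offset 1 base smaller for the other 2. The models Gm28661 (copy of mt-Co2), Gm10925 (mt-Atp6), Gm28437 (mt-Co3), Gm10222 (mt-Nd4l) and Gm28439 (876 bases of mt-Nd4) were identical to the mitochondrial sequence over their whole alignment. Gm28438 differed from mt-Nd3 by 1 base in 345 (T3C), and Gm29216 differed from mt-Co1 by 1 base in 483 (A1066T), with positions counted from the first base of the mitochondrial gene. The sequences around these single differences are given below from the GENCODE M21 transcripts, 5′ to 3′, with the differing base in capitals, because a read that does not cover that base has the same sequence at both places. They lie at chrM:9459-9521 (mt-Nd3, plus strand), chr1:24613057-24613119 (Gm28438, minus strand), chrM:6390-6453 (mt-Co1, plus strand) and chr1:24616125-24616188 (Gm29216, minus strand).
mt-Nd3: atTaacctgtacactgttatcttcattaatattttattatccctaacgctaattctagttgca
Gm28438: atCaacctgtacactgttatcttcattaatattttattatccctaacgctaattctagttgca
mt-Co1: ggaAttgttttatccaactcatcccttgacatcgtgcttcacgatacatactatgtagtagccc
Gm29216: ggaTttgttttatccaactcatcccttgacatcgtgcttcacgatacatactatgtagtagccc
The mitochondrial tRNA for glutamine, mt-Tq (chrM:3772-3842, minus strand), is shown because it was the mitochondrial gene that passed the test in the comparison of tissues described below; the 3 bases in capitals are those that it shares, on opposite strands, with the isoleucine tRNA gene mt-Ti.
mt-Tq: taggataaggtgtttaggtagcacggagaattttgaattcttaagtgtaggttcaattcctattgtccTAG

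Total counts per library were between 7756762 and 27386184, and a count of 0 allowed up to 3 counts, or 0.110 to 0.387 CPM (the count divided by the library total and expressed per 1e6), for counting error only. All other CPM values, unless stated, were also scaled with TMM factors, which correct library totals for genes that differ strongly. These factors were 1.10 to 1.44 in BM and 0.716 to 1.04 in spleen, and they lower BM values against spleen values. Shares in percent were not scaled. The markers of the sorted cell type did not behave alike in both tissues. The 18 MK and platelet genes summed to 12867 to 51237 CPM in BM and to 1387 to 3859 CPM in spleen, with 17 or 18 of them detected in each library. The 12 B cell genes summed to 89.3 to 602 CPM in BM and to 5690 to 33479 CPM in spleen, and the 8 plasma cell genes to 1473 to 4661 CPM in BM and to 7703 to 80224 CPM in spleen. Sums of 10 T cell genes were 8.52 to 102 CPM in BM and 147 to 1806 CPM in spleen. Those of 12 neutrophil genes were 103 to 277 CPM in BM after saline, 2233 to 16600 CPM in BM after sepsis and 70.8 to 21099 CPM in spleen, and 12 monocyte and macrophage genes and 9 erythroid genes stayed at or under 2843 and 622 CPM in every library. Gene segments of immunoglobulins and T cell receptors held 1.04% to 4.23% of counts in BM and 13.03% to 30.1% in spleen. The MK, B cell, plasma cell and T cell markers and these segments move with the comparisons of tissues given here. Sums of plasma cell genes in spleen were 46390 to 80224 CPM after saline and 7703 to 35399 CPM after sepsis, so these and the neutrophil genes in BM also differ with treatment. The same held for monocyte and macrophage genes in spleen (1605 to 2843 CPM after saline, 317 to 955 CPM after sepsis). In BM it held for B cell genes (378 to 602 and 89.3 to 260 CPM) and erythroid genes (159 to 456 and 45.8 to 91.4 CPM). The part of all these markers in the mitochondrial values was not tested. The spleen sepsis 3 library also stood apart by 2 genes, chosen after their values were seen: the RNA gene model Gm26917 was at 24691 CPM against 81.8 to 361 CPM in the other 11 libraries, and Lars2, the mitochondrial leucyl-tRNA synthetase, was at 77304 CPM against 72.0 to 1059 CPM.

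Mitochondrial genes took a share of the RNA that overlapped between all 4 groups, but that share was made up differently in a few libraries. Together they held 4.60%, 3.91% and 4.38% of counts in BM saline libraries 1 to 3 and 4.39%, 3.995% and 3.16% in BM sepsis libraries. In spleen they held 3.51%, 4.27% and 3.26% after saline and 4.88%, 4.95% and 2.89% after sepsis. The group means were 4.29% ± 0.350, 3.85% ± 0.625, 3.68% ± 0.523 and 4.24% ± 1.17 (SD, n = 3 each), and the 4 groups overlapped. With the immunoglobulin and T cell receptor segments left out of the total, the means were 4.41% and 3.90% in BM and 5.09% and 5.51% in spleen after saline and sepsis, so that the order of the tissues after saline turned. In bulk samples such as these, fewer cells of a type and less RNA per cell cannot be told apart. The 95% Wilson intervals of single shares reached at most 0.0144 percentage points to either side, which covers counting error only, so the spread between libraries and not depth set the precision.

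The 13 mRNA genes made up most mitochondrial counts in 10 of the 12 libraries. Their share of all counts was 2.84%, 2.74% and 3.16% in BM saline and 3.12%, 1.67% and 1.99% in BM sepsis. It was 2.14%, 2.73% and 1.88% in spleen saline and 3.42%, 3.26% and 0.488% in spleen sepsis. Here spleen sepsis 3 was the lowest of all 12, and the highest values came from the other two libraries of its group. The 2 rRNA genes took 1.16% to 2.36% of counts, and their highest shares were in spleen sepsis 3 (2.36%) and BM sepsis 2 (2.30%). Counts of mRNA genes per count of rRNA genes were accordingly 0.206 in spleen sepsis 3 and 0.727 in BM sepsis 2, against 1.38 to 2.65 in the other 10 libraries. In spleen sepsis 3, rRNA genes were 81.9% of mitochondrial counts and mt-Rnr2 alone was 66.8%. This is the library with the high counts on Gm26917 and Lars2, whereas BM sepsis 2 had 217 CPM of Gm26917 and 268 CPM of Lars2, within the range of the others; the part of these genes in the low mRNA share was not tested.

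**Figure D1:**
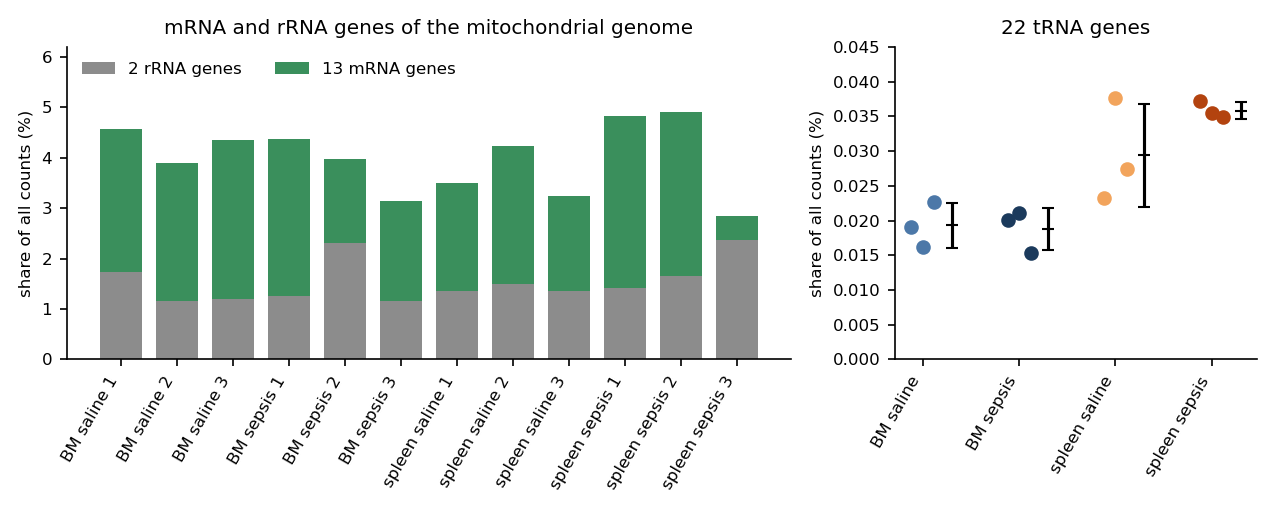
Share of all counts (%) taken by the mRNA and rRNA genes in each library (left, stacked bars) and by the tRNA genes in each group (right, points are libraries, black marks are mean ± SD, n = 3). The mRNA part of the bar is smallest in spleen sepsis 3 (0.488%), and all spleen points for tRNA genes (0.0232% to 0.0377%) lie above all BM points (0.0153% to 0.0227%).

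The tRNA genes took a small part of the counts, which was higher in every spleen library than in any BM library. Their summed share was 0.0191%, 0.0162% and 0.0227% in BM saline and 0.0201%, 0.0210% and 0.0153% in BM sepsis. In spleen it was 0.0232%, 0.0377% and 0.0274% after saline and 0.0372%, 0.0355% and 0.0349% after sepsis. The value of spleen sepsis 3 was like those of its group. As a sum over genes chosen with results known, this share was not tested. The 8 minus-strand tRNA genes, 6 of which had counts, held 75.9% to 88.7% of the tRNA counts of a library. These tRNA genes lie opposite to the plus-strand precursor, and the part of its reads in their counts was not tested.

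Counts were found on 25 of the 37 genes, and 12 genes were at 0 in all 12 libraries. Those at 0 included 5 mRNA genes: mt-Co2 and mt-Co3, subunits of cytochrome c oxidase; mt-Atp6 and mt-Atp8, subunits of ATP synthase; and mt-Nd4l, a subunit of complex I. The other 7 were the tRNA genes mt-Tw, mt-Ty, mt-Ts1, mt-Td, mt-Tk, mt-Tg and mt-Th. The genes at 0 were not spread evenly over the genome. Of 11 genes that lie wholly in the stretch matched by the chr1 copies, 9 were at 0, the exceptions being mt-Nd3 with 0 to 323 counts and mt-Tr with 0 to 18 counts. Both genes that lie partly in it (mt-Co1 and mt-Nd4) had counts, and 3 of the 24 genes outside it were at 0 (mt-Tw, mt-Ty and mt-Th).

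Most mRNA genes at 0 had almost no sequence that was absent from the nuclear copies. Of all windows of 50 bases in a gene, 0 of 635 in mt-Co2, 3 of 632 in mt-Atp6, 1 of 735 in mt-Co3, 3 of 248 in mt-Nd4l and 6 of 299 in mt-Nd3 were absent from every nuclear copy found. In mt-Co1, 731 of 1496 windows had no copy, and in mt-Nd4 502 of 1329. For mt-Nd1, mt-Nd6 and mt-Cytb every window was free of a copy. mt-Atp8 was an exception, with no copy among the gene models (155 of 155 windows free) and 0 counts; it lies between the stretches copied in Gm28661 and Gm10925, and the chr1 sequence between these models was not used here. Counts were not found on the copies in their place: the 7 models on chr1 had at most 11 counts in a library (Gm28438). Of the other copies, Gm13341 (95.9% identical to mt-Co2) had 8 to 161 counts, Gm13340 (97.6% identical to mt-Co1) 28 to 168, Gm4076 (95.2% identical to part of mt-Nd5) 0 to 13, and Gm13339 (part of mt-Nd2) 0 to 6. All 11 copies together held 38 to 365 counts in a library, against 288968 to 1335685 counts on the mitochondrial genes. In the 7 tRNA genes at 0, as in all other tRNA genes, every window was free of a copy too. How reads matching more than one place were counted is not given in the sources used here. A value of 0 for mt-Co2, mt-Atp6, mt-Co3 and mt-Nd4l therefore cannot be read as absence of their RNA. For mt-Atp8 and the 7 tRNA genes no copy was found among the gene models. The tool and annotation used for counting are not given either, so their 0 cannot be read as absence of RNA. The part of the copies in the values of these 12 genes was not tested.

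**Figure D2:**
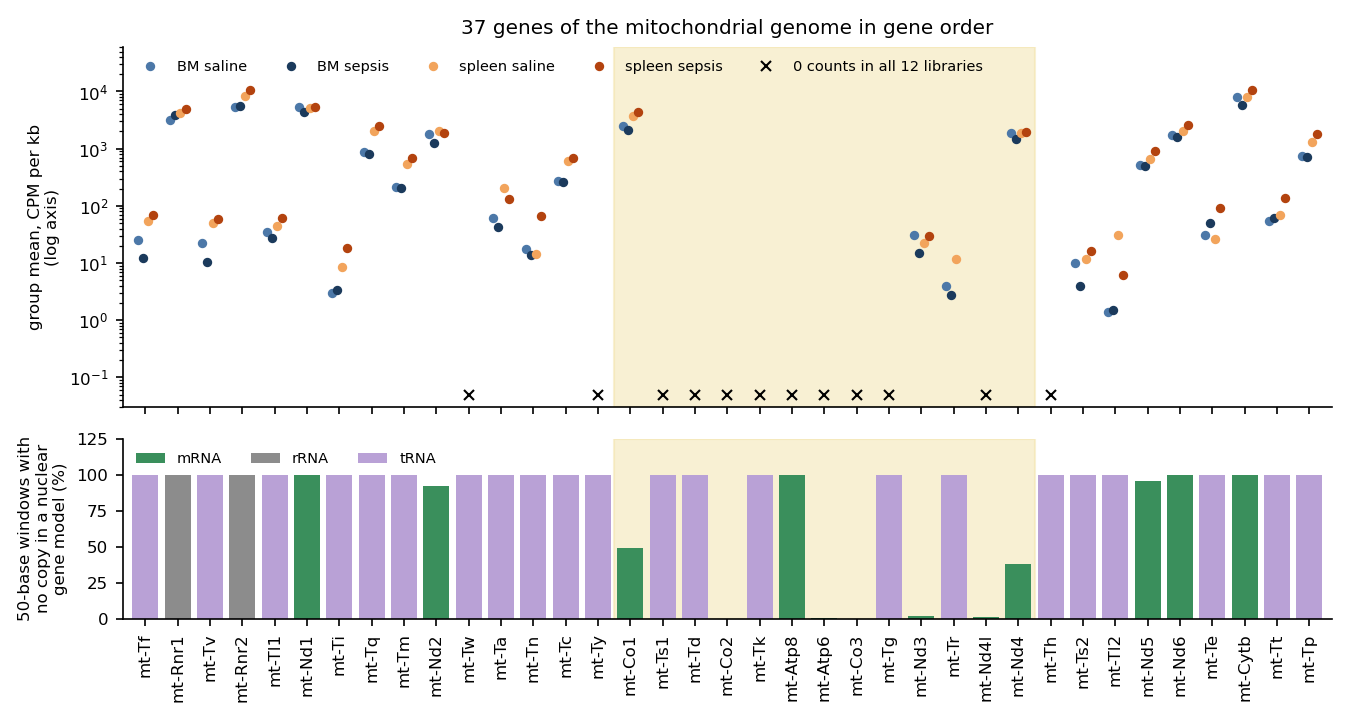
Upper panel, group mean of CPM per kb of gene length (log axis) for the 37 genes in gene order, with crosses for the 12 genes at 0 in all 12 libraries; lower panel, percent of 50-base windows of each gene without an identical copy in a nuclear gene model. The shaded genes lie wholly or partly in the stretch matched on chr1, which holds 9 of the 12 genes at 0.

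Per kb of whole gene length, the highest and lowest levels among the mRNA genes were held by the same genes in nearly every library. By this measure mt-Cytb (cytochrome b of complex III) was highest of the 7 mRNA genes with counts other than mt-Nd3 in 11 of 12 libraries. mt-Nd1 (complex I) was second in 11 of 12, and in BM sepsis 2 mt-Cytb and mt-Nd1 changed places. mt-Nd5 (complex I) was lowest in 12 of 12. Group means for mt-Cytb were 8074 ± 1248, 5707 ± 3238, 8010 ± 897 and 10613 ± 8224 CPM per kb (SD, n = 3), in the order BM saline and sepsis, then spleen saline and sepsis. For mt-Nd1 they were 5375 ± 194, 4309 ± 1530, 5142 ± 963 and 5297 ± 3580 CPM per kb, and for mt-Nd5 523 ± 75.8, 504 ± 195, 667 ± 156 and 917 ± 647 CPM per kb. Between these ends, mt-Nd2, mt-Nd4 and mt-Nd6 changed places from library to library, with overlapping ranges in each group, and mt-Co1 was ranked 3 in 10 libraries and 6 in BM sepsis 2 and spleen sepsis 3. The level of mt-Nd4 depended on the length by which all its counts were divided. It was 1879 ± 110 CPM per kb in BM saline with the whole length, but 5157 ± 302 with the length outside the copied stretch. Where in a gene the reads lay is not known from counts per gene. The second value thus assumes that no counted read came from the copied part. For mt-Co1 the same change was from 2508 ± 440 to 3648 ± 641 CPM per kb. The place of mt-Nd1 depended on this choice in spleen. With all counts divided by the length outside the copied stretch, mt-Co1 was at 5513 ± 960 CPM per kb in spleen saline. In spleen sepsis it was at 6430 ± 5327, and both values were above mt-Nd1 under the same assumption. mt-Nd4 was at 5245 ± 362 and 5284 ± 3676 CPM per kb there, above mt-Nd1 after saline only. In BM the group means of both genes stayed below those of mt-Nd1. mt-Nd3, which lies wholly in the copied stretch, was at 30.6 ± 15.4 CPM per kb in BM saline.

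The mRNA genes of complex I overlapped between the tissues, and within spleen sepsis 2 libraries were high and spleen sepsis 3 was low. mt-Nd1 was at 5354, 5072 and 5005 CPM in BM saline, 5763, 2945 and 3665 CPM in BM sepsis, 5444, 5461 and 3856 CPM in spleen saline and 7364, 6713 and 1131 CPM in spleen sepsis. mt-Nd2 was at 1990, 1660 and 1977 CPM, 1591, 1023 and 1249 CPM, 2153, 2470 and 1681 CPM and 2568, 2784 and 504 CPM in the same order of groups. In both genes 2 of 3 spleen sepsis libraries were above all others and the third below all others. mt-Nd4 was at 2753, 2455 and 2557 CPM, 2471, 1597 and 2000 CPM, 2424, 2732 and 2744 CPM and 3737, 3699 and 522 CPM. mt-Nd5 was at 852, 897 and 1111 CPM, 1284, 575 and 898 CPM, 1281, 1462 and 906 CPM and 2464, 2238 and 317 CPM. These genes showed the same split within spleen sepsis. mt-Nd6, the only mRNA gene on the minus strand, was at 932, 742 and 976 CPM, 1022, 733 and 781 CPM, 891, 1191 and 1088 CPM and 1661, 1906 and 431 CPM. mt-Nd3 was at 6.48, 8.78 and 16.7 CPM, 7.18, 5.40 and 2.82 CPM, 13.3, 4.01 and 6.39 CPM and 16.5, 14.2 and 0 CPM. Without spleen sepsis 3 the spleen sepsis values of mt-Nd1, mt-Nd2, mt-Nd4, mt-Nd5 and mt-Nd6 were above all BM values. For the first 3 of these genes this depended on the TMM factors. In CPM without them, the highest spleen value was below the highest BM value for mt-Nd1 (5271 against 6693), mt-Nd2 (2336 against 2488) and mt-Nd4 (2842 against 3442). It was above the highest BM value for mt-Nd5 (1764 against 1417) and mt-Nd6 (1465 against 1177).

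mt-Cytb and mt-Co1, of complexes III and IV, showed the same split within spleen sepsis. mt-Cytb was at 7675, 9556 and 10477 CPM in BM saline, 10638, 3447 and 5501 CPM in BM sepsis, 9877, 9627 and 7987 CPM in spleen saline and 19051, 15947 and 1427 CPM in spleen sepsis. mt-Co1, the catalytic subunit of cytochrome c oxidase, was at 3116, 4431 and 4076 CPM, 5468, 1315 and 2930 CPM, 6848, 5907 and 4810 CPM and 10924, 9189 and 374 CPM in the same order. Without spleen sepsis 3, every spleen library but 1 exceeded every BM library for mt-Co1. With spleen sepsis 3, the lowest library of all was a splenic one. In CPM without TMM factors mt-Co1 was at 1890 to 6037 in BM and 388 to 7819 in spleen. The spleen saline libraries then lay below the highest BM library.

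The 2 rRNA genes differed from each other in how they followed the tissue. mt-Rnr1, the RNA of the small mitochondrial ribosomal subunit, was at 3847, 2704 and 2675 CPM in BM saline, 3183, 5025 and 2745 CPM in BM sepsis, 4486, 3900 and 3584 CPM in spleen saline and 4581, 5276 and 4198 CPM in spleen sepsis. mt-Rnr2, the RNA of the large subunit, was at 10085, 7785 and 7224 CPM, 8126, 10995 and 7165 CPM, 13793, 11973 and 13155 CPM and 15256, 16245 and 18593 CPM in the same order. The tissues overlapped for mt-Rnr1 and did not overlap for mt-Rnr2. Because both rRNAs come from 1 precursor and share every scaling factor, their ratio within a library does not depend on normalization. Counts of mt-Rnr2 per count of mt-Rnr1 were 2.62, 2.88 and 2.701 in BM saline, 2.55, 2.19 and 2.61 in BM sepsis, 3.07, 3.07 and 3.67 in spleen saline and 3.33, 3.08 and 4.43 in spleen sepsis. All 6 spleen libraries lay above all 6 BM libraries. Of the 36 ratios among the 9 genes with at least 1000 counts in every library, this was the 1 ratio that did not overlap between the tissues. When spleen sepsis 3 was left out, a choice made after its values were seen, 3 of 36 did not overlap: besides mt-Rnr2 per mt-Rnr1, mt-Co1 per mt-Nd1 (higher in spleen) and mt-Cytb per mt-Co1 (higher in BM, 1.88 to 2.62). These ratios were not tested.

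**Figure D3:**
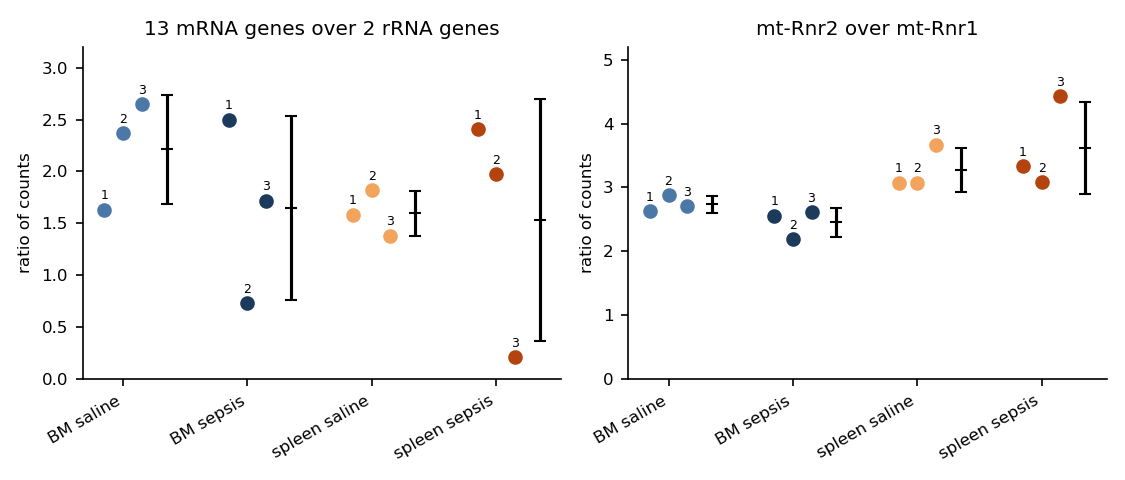
Ratio of counts within each library for all mRNA over all rRNA genes (left) and for mt-Rnr2 over mt-Rnr1 (right), with replicate numbers beside the points and mean ± SD (n = 3) in black. On the left spleen sepsis 3 (0.206) and BM sepsis 2 (0.727) lie apart; on the right all spleen libraries (3.07 to 4.43) lie above all BM libraries (2.19 to 2.88).

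A few of the tRNA genes carried most of the tRNA counts. mt-Tq, for glutamine, was at 47.3, 64.6 and 74.6 CPM in BM saline, 74.0, 51.3 and 48.8 CPM in BM sepsis, 107, 181 and 155 CPM in spleen saline and 181, 198 and 163 CPM in spleen sepsis. mt-Tp, for proline, was at 57.5, 43.4 and 46.1 CPM, 59.1, 38.4 and 46.9 CPM, 76.7, 104 and 82.8 CPM and 160, 130 and 74.4 CPM. In both genes each spleen library was above each BM library. mt-Tc, for cysteine, was at 11.5 to 22.8 CPM in BM and 35.7 to 50.9 CPM in spleen. mt-Tm, for methionine, was at 7.56 to 20.1 CPM in BM and 27.5 to 70.8 CPM in spleen. mt-Ta, for alanine, also did not overlap, at 1.43 to 5.33 CPM against 5.49 to 15.2 CPM. The other 10 tRNA genes with counts stayed under 15 CPM in every library and overlapped between the tissues. mt-Tq, mt-Tp, mt-Tc and mt-Ta are minus-strand genes, and mt-Tm is on the plus strand.

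In all, 6 mitochondrial genes (mt-Rnr2 and the 5 tRNA genes) had every spleen library above every BM library, and 0 had the reverse. Over all 20263 genes tested, 1.87% lay wholly higher in spleen and 2.56% wholly higher in BM. These CPM were scaled with TMM factors, which correct library totals for genes that differ strongly and which were 1.10 to 1.44 in BM and 0.716 to 1.04 in spleen. In CPM without TMM factors 1 of the 6, mt-Tm, still did not overlap (8.83 to 24.2 against 26.1 to 50.7 CPM), whereas mt-Tq was at 57.0 to 89.99 CPM in BM and 79.4 to 171 CPM in spleen, and mt-Rnr2 at 8373 to 15798 and 10201 to 19284 CPM. The share of all genes tested that did not overlap was not taken without TMM factors, so this count has no background beside it.

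**Figure D4:**
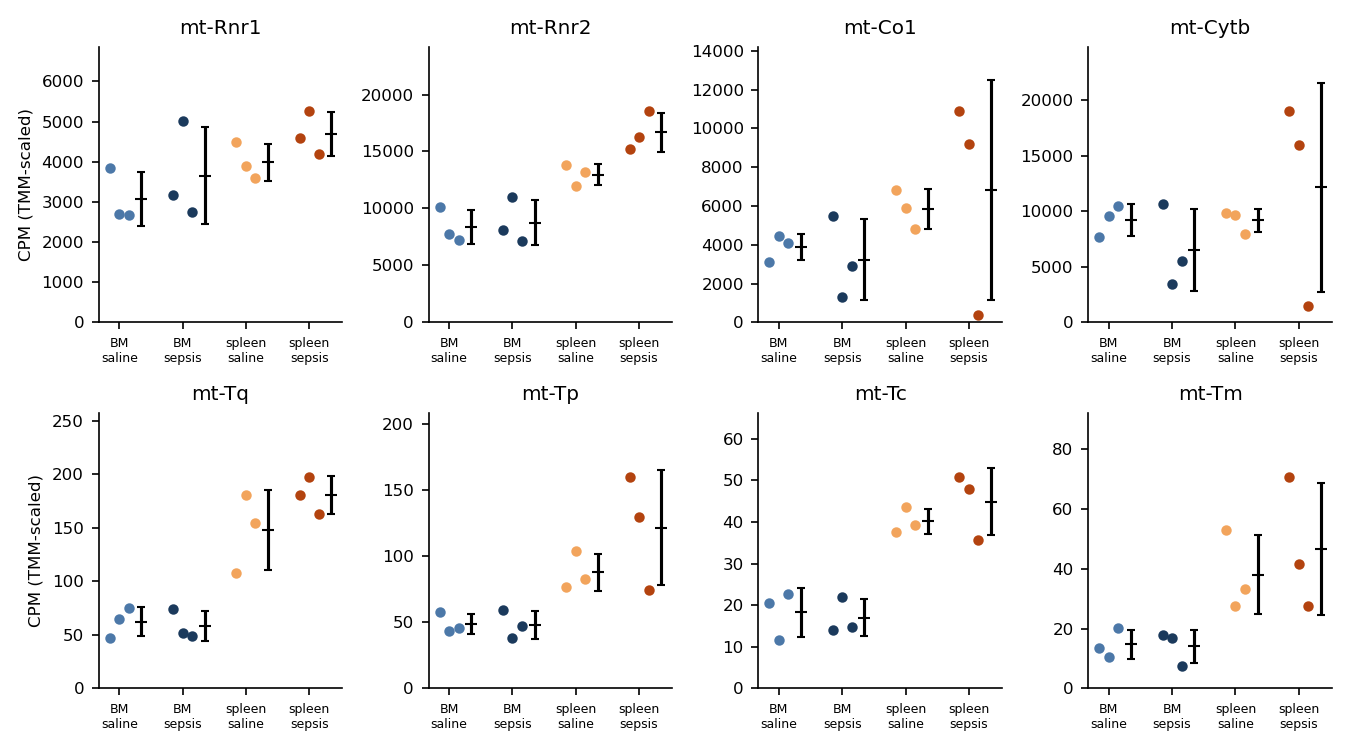
CPM scaled with TMM factors of the 2 rRNA genes, 2 mRNA genes and the 4 tRNA genes with most counts (points are libraries, black marks are mean ± SD, n = 3; each panel has its own axis from 0). mt-Rnr2 and the 4 tRNA genes lie higher in all 6 spleen libraries, which without TMM factors held for mt-Tm alone, and for mt-Co1 and mt-Cytb 1 spleen sepsis library lies lowest of all 12.

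Which of these differences exceeded the spread between libraries was tested with edgeR's quasi-likelihood test over all 20263 genes that passed a filter on low counts, with Benjamini-Hochberg adjustment and a threshold of 0.05. Of the 37 mitochondrial genes, 21 passed the filter (8 mRNA, 2 rRNA and 11 tRNA genes), 4 tRNA genes with few counts did not (mt-Ti, mt-Tr, mt-Ts2 and mt-Tl2) and 12 were at 0. In the mean of both treatments mt-Tq was lower in BM than in spleen, and it was the 1 mitochondrial gene called in any comparison (edgeR log2 fold change -1.44, SE 0.37, adjusted p = 0.0260). In that comparison 4.75% of all genes tested were called. After saline the fold change of mt-Tq was -1.25 (SE 0.52, edgeR adjusted p = 0.365) and after sepsis it was -1.64 (SE 0.52, adjusted p = 0.163), and neither was called. The call was kept in 7 of 21 alternatives and changed with the scaling, with the filter on low counts and in fits that left out a library. With library size alone the log2 fold change was -0.93 (adjusted p = 0.133), while the median of all genes tested moved from -0.13 to 0.39. Without the filter it was -1.37 (adjusted p = 0.158). The replicate number as a block gave an adjusted p of 0.0555, and leaving out 1 library at a time gave 0.0226 to 0.173 in edgeR, with the call kept in 1 of 12 such fits, that without spleen sepsis 3. In these 12 fits the log2 fold change was -1.51 to -1.31 and the SE 0.37 to 0.51. The filter was applied anew in each of them (25900 genes passed without spleen sepsis 3). The part of a library and that of the filter therefore cannot be told apart.

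mt-Rnr2 came next, with a log2 fold change of BM over spleen of -0.78 (SE 0.25, edgeR adjusted p = 0.0831) in the mean of both treatments, which was not called. It was called without spleen sepsis 3 (-0.71, adjusted p = 0.00601), with RLE factors in place of TMM (-0.98, adjusted p = 0.0158), with the immunoglobulin and T cell receptor segments removed (-0.80, adjusted p = 0.0296), without a filter (-0.72, adjusted p = 0.00319), by DESeq2 (adjusted p = 0.00845) and by limma-voom (adjusted p = 1.36e-05). With library size alone it was -0.24 (adjusted p = 0.528). Over its 21 alternatives the edgeR, DESeq2 or limma-voom adjusted p of mt-Rnr2 was thus between 1.36e-05 and 0.528. mt-Rnr1 had a fold change of -0.37 (SE 0.27, edgeR adjusted p = 0.482), which turned to 0.20 with library size alone.

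No mRNA gene was called by edgeR with all 12 libraries and the filter on low counts; without the filter mt-Co1 was called (-0.77, edgeR adjusted p = 0.0170). In the mean of both treatments, log2 fold changes of BM over spleen were -0.84 for mt-Co1 (SE 0.51, edgeR adjusted p = 0.378), -0.44 for mt-Cytb (SE 0.43, adjusted p = 0.596), -0.61 for mt-Nd5 (SE 0.40, adjusted p = 0.425) and -0.12 for mt-Nd1 (SE 0.37, adjusted p = 0.904). The other mRNA genes lay between -0.46 (mt-Nd6) and -0.21 (mt-Nd4). The mRNA values depended on spleen sepsis 3: without it, mt-Co1 was lower in BM than in spleen after sepsis (-1.62, edgeR adjusted p = 0.0168), as was mt-Cytb (-1.40, adjusted p = 0.0128), and mt-Co1 also in the mean of both treatments (-1.08, adjusted p = 0.00921). With all libraries the values after sepsis were -1.08 (SE 0.72, adjusted p = 0.515) for mt-Co1 and -0.90 (SE 0.61, adjusted p = 0.529) for mt-Cytb. Among the tRNA genes that did not overlap, mt-Tp was at -1.09 (SE 0.39, edgeR adjusted p = 0.125), mt-Tm at -1.55 (SE 0.55, adjusted p = 0.122), mt-Tc at -1.27 (SE 0.51, adjusted p = 0.173) and mt-Ta at -1.68 on the log2 scale (SE 0.94, adjusted p = 0.333).

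**Figure D5:**
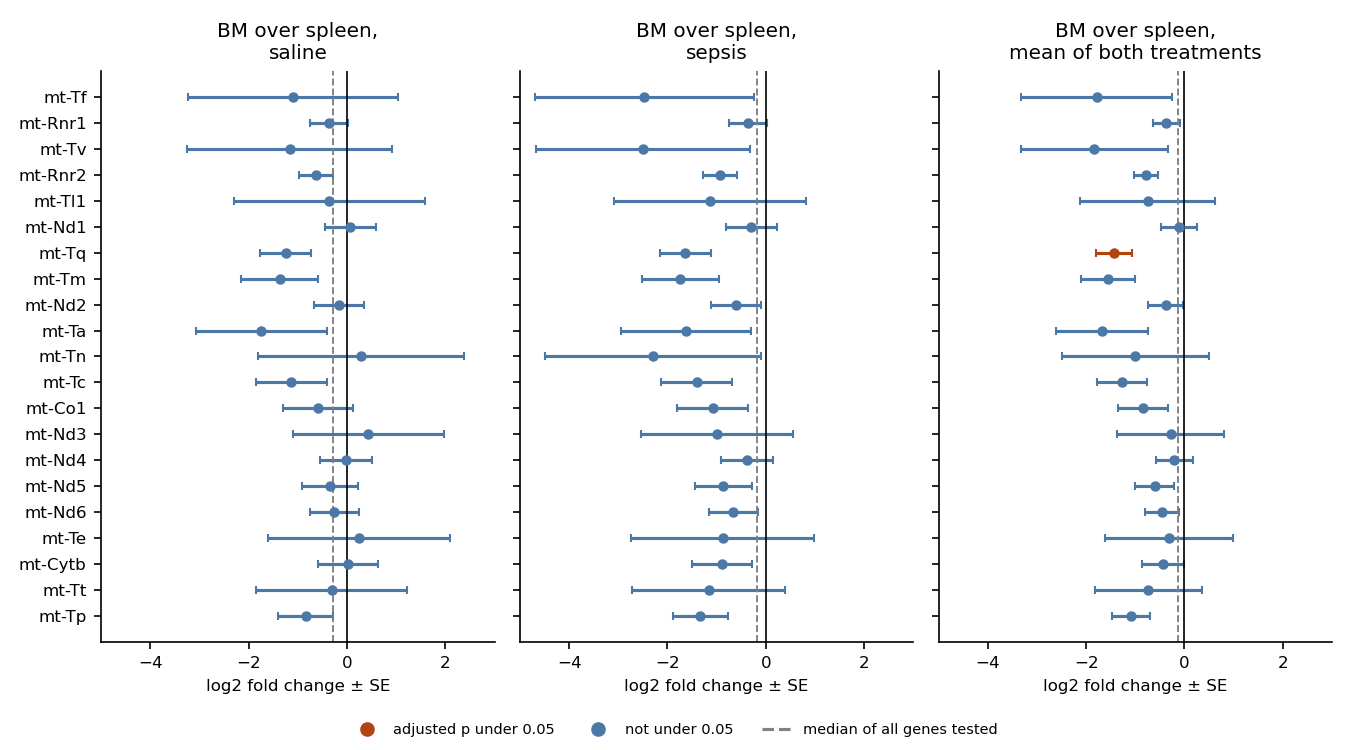
Log2 fold change of BM over spleen ± SE from edgeR for the 21 mitochondrial genes tested, after saline, after sepsis and in the mean of both treatments; the dashed line is the median of all 20263 genes tested (-0.28, -0.18 and -0.13). mt-Tq, in red, is the 1 gene with an adjusted p under 0.05, and the tRNA genes with few counts have the widest SE.

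As a group, the 21 tested genes had a median log2 fold change of BM over spleen of -0.36 after saline, -1.08 after sepsis and -0.75 in the mean, beside medians of all genes tested of -0.28, -0.18 and -0.13. The sign was negative for 16, 21 and 21 genes, and for 11379, 11122 and 10763 of all 20263 genes tested. It depended on the scaling, since with library size alone 9, 17 and 13 of 21 were negative, the medians were 0.15, -0.42 and -0.19, and those of all genes tested were 0.22, 0.35 and 0.39. Without spleen sepsis 3 the medians were -0.32, -1.56 and -0.86 over 24 genes. These genes are read from a few shared precursors and are not independent of each other.

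No mitochondrial gene passed the test between sepsis and saline in either tissue, where edgeR called few or no genes of any kind. Of all genes tested it called 0% in BM, 0.158% in spleen and 0% for the difference between the tissues in the effect of sepsis. DESeq2 called 1.03%, 4.91% and 2.44% in the same order, and limma-voom 0% in each. The 0 calls by edgeR are thus not particular to the mitochondrial genes. Over all 20263 genes tested, edgeR gave an unadjusted p under 0.05 for 718 genes in BM and 2649 in spleen. For the difference between the tissues in the effect of sepsis it did so for 1557 genes. In BM, 0 of 21 genes tested were called by edgeR (0 at an unadjusted p under 0.05, and 0 also by DESeq2 and limma-voom), the lowest log2 fold change of sepsis over saline was -1.08 (mt-Tv) and the highest 0.72 (mt-Te). In spleen, 0 were called by edgeR (0 at an unadjusted p under 0.05, and 0 by DESeq2 and limma-voom), with fold changes from -0.65 (mt-Ta) to 2.20 (mt-Tn). mt-Rnr2 had 0.07 (SE 0.35) in BM and 0.36 (SE 0.35) in spleen, mt-Cytb -0.50 (SE 0.61) and 0.41 (SE 0.61), and mt-Tq -0.10 (SE 0.51) and 0.29 (SE 0.51). Without spleen sepsis 3 the spleen value of mt-Cytb was 0.97 (edgeR adjusted p = 0.284), and the median of the mitochondrial genes went from 0.34 to 0.62. The difference between the tissues in the effect of sepsis was also called for 0 genes by edgeR (0 at an unadjusted p under 0.05, and 0 by DESeq2 and limma-voom). Its lowest edgeR adjusted p was 0.835, for mt-Cytb, with a difference of -0.91 (SE 0.86). Without spleen sepsis 3 it was -1.46 (adjusted p = 0.298), and the median of the interaction went from -0.48 to -0.90.

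In the tissue comparisons within a treatment edgeR called 0 of 21 as well, with 1 gene at an unadjusted p under 0.05 after saline (mt-Tq) and 4 after sepsis (mt-Tq, mt-Rnr2, mt-Tp and mt-Tm). Of all 20263 genes tested, 2535 after saline and 2618 after sepsis had such an unadjusted p. Other tools called more. DESeq2 called 1 mitochondrial gene after saline, 2 after sepsis and 6 in the mean of both (mt-Rnr2, mt-Tq, mt-Tm, mt-Ta, mt-Tc and mt-Tp), and limma-voom called 0, 3 and 5, in each case lower in BM. They also called more genes in general. The share of all genes tested that edgeR called was 1.25% for BM over spleen after saline, 1.78% after sepsis, 0% for sepsis over saline in BM, 0.158% in spleen and 0% for the interaction. DESeq2 called 6.48%, 7.3%, 1.03%, 4.91% and 2.44% in the same order and 12.9% in the mean of both treatments. For limma-voom the shares were 0.913%, 3.57%, 0%, 0% and 0%, and 7.49% in the mean.

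Nuclear genes of the same complexes mostly had fold changes above 0, where the mitochondrial genes had values below 0; the difference between these lists was not tested. The lists held 37 nuclear subunits of complex I, 4 of complex II, 9 of complex III, 16 of complex IV and 15 of complex V (ATP synthase), and 79 of the 81 genes were tested. edgeR called 1 of 79 in the mean of both treatments and after sepsis and 0 after saline (20 at an unadjusted p under 0.05; 2 by DESeq2 and 0 by limma-voom). Of all 20263 genes tested, edgeR called 4.75% in the mean, 1.78% after sepsis and 1.25% after saline. After saline 2535 of them had such an unadjusted p in edgeR, DESeq2 called 6.48% and limma-voom 0.913%. The gene called by edgeR was Cox6b2, a complex IV subunit known from testis, at 35.05 to 108 CPM in BM and 0.22 to 10.9 CPM in spleen (log2 fold change 4.90, SE 0.87, edgeR adjusted p = 0.00171). The median log2 fold change of the 79 genes was 0.81 after saline, 0.32 after sepsis and 0.59 in the mean, with 70, 64 and 69 values above 0. Over all 20263 genes tested the medians were -0.28, -0.18 and -0.13, with 8884, 9141 and 9500 values above 0. Here too the scaling counted: with library size alone the median was 1.16 and 44 of 79 were called higher in BM, against 1 with TMM. Under that scaling 5.45% of all genes tested were called higher in BM, and the median over all genes tested was 0.39. Without spleen sepsis 3 the median after sepsis was 0.02.

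Examples from these lists show the spread. Ndufa9 of complex I had 150 ± 49.6 and 166 ± 42.0 CPM in BM and 38.3 ± 10.4 and 96.8 ± 83.6 CPM in spleen after saline and sepsis (log2 fold change in the mean 1.37, SE 0.45, edgeR adjusted p = 0.0947). For Sdhd of complex II it was 1.37 (SE 0.47, adjusted p = 0.108), for Uqcr11 of complex III 0.88 (SE 0.32, adjusted p = 0.125), and for Atp5k of complex V 1.08 (SE 0.31, adjusted p = 0.0539). Neither Ndufab1 (1.05, SE 0.38, edgeR adjusted p = 0.127) nor Cox7c (0.86, SE 0.32, adjusted p = 0.140) was called. After sepsis against saline 0 of 79 were called by edgeR, DESeq2 or limma-voom in either tissue, with 0 genes in BM and 4 in spleen at an unadjusted p under 0.05 in edgeR. Of all 20263 genes tested, 718 in BM and 2649 in spleen had such an unadjusted p. The shares called in BM and spleen were 0% and 0.158% by edgeR, 1.03% and 4.91% by DESeq2, and 0% in both by limma-voom.

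Of the nuclear genes that transcribe, process and translate mitochondrial RNA, few passed the test: 1 of 16, 1 of 33 and 1 of 77 genes in the 3 lists below, beside 4.75% of all genes tested in the mean of both treatments. Among 16 genes of mitochondrial DNA transcription and replication, Mgme1, a nuclease of mitochondrial DNA, was higher in BM (5.02 to 32.7 CPM) than in spleen (0 in all spleen saline libraries and at most 6.94 CPM after sepsis; edgeR adjusted p = 0.0322 in the mean). The mitochondrial RNA polymerase Polrmt was at 1.09 to 10.3 CPM in BM and 1.06 to 18.0 CPM in spleen (log2 fold change -1.03, SE 1.15, edgeR adjusted p = 0.654), and the packaging and transcription factor Tfam at 42.2 to 109 and 42.2 to 136 CPM (-0.04, SE 0.39, adjusted p = 0.987). Among 33 genes of RNA processing and stability, Rexo2, an exonuclease that degrades short RNA pieces in mitochondria, was lower in BM (76.4 to 292 CPM) than in spleen (362 to 1005 CPM; log2 fold change -1.62, SE 0.36, edgeR adjusted p = 0.0101). The mRNA-stabilizing pair Lrpprc and Slirp had log2 fold changes of 0.45 (SE 0.57, adjusted p = 0.694) and 0.73 (SE 1.66, adjusted p = 0.854). Of 77 mitochondrial ribosomal protein genes tested, 1 was called, Mrps25, higher in BM (log2 fold change 1.80, SE 0.42, edgeR adjusted p = 0.0138), and the median over the 77 was 0.47.

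For 20 mitochondrial aminoacyl-tRNA synthetases and 9 regulators of mitochondrial biogenesis, 0 genes were called by edgeR in any comparison (5 and 0 genes at an unadjusted p under 0.05 in the mean of both treatments); DESeq2 called 3 and 0 in that comparison, and limma-voom 0 and 0. Of all 20263 genes tested, 3907 had such an unadjusted p in edgeR in that comparison. The shares called there were 4.75% by edgeR, 12.9% by DESeq2 and 7.49% by limma-voom. Yars2, the tyrosyl-tRNA synthetase, had a log2 fold change of 2.56 there (SE 0.79, edgeR adjusted p = 0.0732). Lars2 had -3.29 (SE 1.07, adjusted p = 0.0918), a value that includes the 77304 CPM of spleen sepsis 3. The regulators Ppargc1a and Nrf1 had -3.27 (SE 1.77, edgeR adjusted p = 0.320) and 1.20 (SE 0.73, adjusted p = 0.377), and Ppargc1a was at most 19.3 CPM in any library. Between treatments edgeR called 0 genes of these 10 lists in either tissue, with 0 genes in BM and 22 in spleen of 234 tested at an unadjusted p under 0.05, while DESeq2 called 0 in BM and 9 in spleen and limma-voom 0 in both. Of all 20263 genes tested, 718 in BM and 2649 in spleen had such an unadjusted p in edgeR. The shares called were 0% and 0.158% by edgeR, 1.03% and 4.91% by DESeq2, and 0% in both tissues by limma-voom.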

How the data were processed

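RNA of 300 sorted MKs per library was amplified with SMART-Seq HT and made into libraries with Nextera XT, neither of which marks strand. The authors deposited raw read counts per gene for the 12 libraries in 1 table. The submitters' processing notes name STAR 2.7.2b, R 3.6.1, DESeq2 1.26 and the build GRCm38, without their roles. Not given in the sources used here were the tool and annotation used for counting, its strand setting and its handling of reads matching several places. All per-sample columns were used (0 unused).

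From the counts, genes were annotated with GENCODE M21, and shares were taken of each library's total, 7756762 to 27386184 counts, with 95% Wilson intervals. Genes passing filterByExpr of edgeR (minimum count 10), 20263 in all, were scaled with TMM factors and fitted with edgeR 4.0.16 (R 4.3.3, quasi-likelihood test, 1 mean per group, 8 residual and 11.1 prior degrees of freedom, prior count 2). The 6 comparisons were BM over spleen after saline, after sepsis and in the mean of both, sepsis over saline in each tissue, and the interaction. P values were adjusted over all genes tested (Benjamini-Hochberg, threshold 0.05), and SE is the absolute log2 fold change over the square root of F. The common biological coefficient of variation over all genes was 143%. The fit was also run on simulated data with planted fold changes much larger than those of the mitochondrial genes. That run therefore does not show whether differences of their size would be found.

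Nuclear copies were found with BLAST 2.17.0 among GENCODE M21 transcripts (at least 100 bases at 95% identity); no genome sequence between gene models was used. Alternatives were RLE factors, library size alone, scaling on genes outside the mitochondrial chromosome, removal of the immunoglobulin and T cell receptor segments, no filter, 10 counts in at least 6 libraries, DESeq2 1.42.0, limma-voom with quality weights (limma 3.58.1), the replicate number as a block, and leaving out each library. Fits that left out a library applied the filter on low counts anew. Tables were made with Python 3.11.15 and pandas 2.3.3, and figures with matplotlib 3.10.9.

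Genes were named by rule: all mRNA and rRNA genes, the 4 tRNA genes of highest mean CPM, nuclear copies with at least 10 counts in some library, the 2 genes of smallest p in the mean of both treatments from each nuclear list, genes called between treatments, and Polrmt, Tfam, Lrpprc, Slirp, Ppargc1a and Nrf1. Other genes are named where a short count included them, after their values were seen. The mitochondrial genes and all lists were chosen with earlier results of these data known.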

Additional observations from a re-analysis of the deposited data

How the results depend on the processing

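Of the fold changes of 14 named mitochondrial genes in 6 comparisons, 1 was called by edgeR in the main setting, mt-Tq in the mean of both treatments, and it lost its call in 14 of 21 alternatives. Values not called gained a call 25 times of 1764, 0 called values turned direction, and 112 changed sign without a call. Of 3024 values of the 24 named nuclear genes, 14 lost and 106 gained a call. In the mean of both treatments, where edgeR called 1 mitochondrial gene, 0 were called with library size alone, 2 each with RLE factors, with segment genes removed and with 10 counts in at least 6 libraries (mt-Tq among them), 2 without a filter (mt-Rnr2 and mt-Co1, not mt-Tq), 6 by DESeq2 and 5 by limma-voom. Leaving out 1 library gave 0 to 3, with 3 only without spleen sepsis 3 and 0 in the other 11 fits. After sepsis, instead of 0, 1 was called without a filter and 1 with 10 counts in at least 6 libraries, 2 by DESeq2, 3 by limma-voom, and 0 to 2 with 1 library left out (2 without spleen sepsis 3). After saline DESeq2 called 1. The causes were not tested.

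With the replicate number as a block 0 mitochondrial genes were called in the mean of both treatments, and the other 5 counts stayed at 0. The numbers gave no sign of pairing: deviations of 18 pairs of equal number had correlations of -0.0566 to 0.0447, and 3 of 12 libraries correlated best with their own number.

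Mean mitochondrial shares without the rRNA genes were 2.97% and 2.31% in BM saline and sepsis and 2.31% and 2.47% in spleen saline and sepsis. Without segment genes in the total they were 4.41% and 3.90% in BM and 5.09% and 5.51% in spleen after saline and sepsis. Alternatives added after seeing the data gave the following. Of 36 ratios, 3 instead of 1 did not overlap without spleen sepsis 3. Of 79 nuclear subunits of complexes I to V, those called after saline went from 0 to 6 with library size alone, 2 by DESeq2 and 1 without spleen sepsis 3. In the mean of both treatments they went from 1 to 44 with library size alone, 3 by DESeq2, 7 by limma-voom and 2 without spleen sepsis 3. Depth did not limit the shares, but tRNA genes with few counts had wide errors.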
